A study of Saccharomyces cerevisiae with 21 samples.

Results

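The comparison described here is that of budding yeast cells depleted of Sth1 and Rap1 together against the same strain given only the solvent. Its members are the 6 libraries of the STH1-AID RAP1-AID strain among the 21 libraries of the series, 3 treated with indole-3-acetic acid (IAA) and 3 treated with DMSO, chosen by strain and treatment. Both proteins carried an auxin-inducible degron (AID), a tag by which the plant F-box protein osTIR recognises a protein in the presence of the auxin IAA and has it degraded by the proteasome. Per the labels, the strain was a MATa derivative of BY4741 with his3D1, leu2D0, met15D0 and ura3D0, in which both STH1 and RAP1 were fused to 3V5-IAA7 and marked with KanMX6. It also carried osTIR under the promoter written pGPD1, and RPB3-3xFLAG marked with NATMX6. The DMSO cells held every one of these alleles, so the contrast measures the addition of IAA to a strain that was tagged throughout. Cells grew exponentially at 30 °C in the rich glucose medium YPD and received 500 µM IAA, or an equal volume of DMSO, for 2 h. The labels name 1 strain and call the 3 libraries of each group biological replicates. Fission yeast (Schizosaccharomyces pombe) cells were mixed in at fixed optical density before RNA extraction, and polyadenylated RNA was sequenced with its strand kept. The other 15 libraries belong to wild-type cells and to strains in which Sth1 or Rap1 alone was tagged.

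Sth1 is the ATPase of RSC, an essential chromatin remodeller that slides and evicts nucleosomes and keeps the nucleosome-depleted regions of promoters open. Rap1 is a general regulatory factor, a DNA-binding protein found at the promoters of most ribosomal protein genes and of many glycolytic genes, at telomeres and at the silent mating-type loci. At ribosomal protein promoters it is bound upstream of the coactivators Fhl1 and Ifh1.

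The 6 libraries held between 24493777 and 28513886 S. cerevisiae counts and between 1514087 and 3486097 S. pombe counts, and 6033 to 6249 genes had at least 10 counts. The a-specific genes took between 0.128% and 0.146% of the counts in the DMSO libraries and the alpha-specific genes between 0.0093% and 0.0137%. URA3 was at 0 in all 6 libraries and HIS3 had 531 to 1453 counts. LEU2 did not pass 3 counts in any library, although the genotype gives a LEU marker beside osTIR, and the study's strain list writes it as LEU2. These counts cover only the S. cerevisiae gene, and the origin of the marker gene was not tested. MET17, which is another name for MET15, had 2373 to 3573 counts in a strain labelled met15D0, which goes against the genotype as written. The mRNAs of the tagged proteins are no measure of the depletion, which acts on protein. STH1 had S. pombe-normalised counts of 12309, 7221 and 6192 in DMSO replicates 1 to 3 and of 8483, 9662 and 9542 in the IAA replicates, and the groups overlapped. For RAP1 the corresponding counts were 5531, 3387 and 2863 against 2691, 3144 and 3122, and these also overlapped.

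One library stood apart in its spike-in. There were 18.1 S. cerevisiae counts per S. pombe count in DMSO replicate 1, 10.5 in DMSO replicate 2 and 8.28 in DMSO replicate 3. The ratios in IAA replicates 1 to 3 were 7.10, 9.20 and 8.01. Each IAA library was therefore below its own DMSO library, but IAA replicate 2 was above DMSO replicate 3. The ratio was 12.3 ± 5.16 in DMSO and 8.10 ± 1.05 in IAA (SD, n = 3). The log2 difference within pairs was -1.35, -0.19 and -0.05, with a mean of -0.53 (SD 0.72, n = 3 pairs; two-sided exact sign-change permutation test p = 0.25, the smallest it can give). Without replicate 1 the mean was -0.12. An exact two-sided permutation of 3 libraries against 3 gave p = 0.2, where 0.1 is the smallest possible. DMSO replicate 1 also had the fewest S. pombe counts of the 6 libraries, 1514087. A lower ratio can come from fewer cells, from less RNA per cell or from error in the spike-in. These cannot be told apart in bulk RNA.

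**Figure D1:**
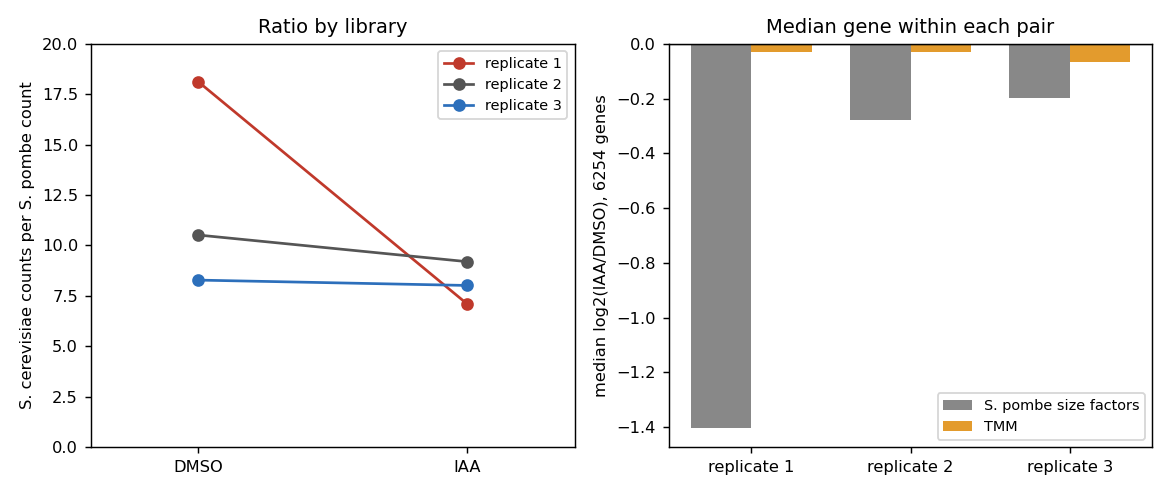
Left, S. cerevisiae counts per S. pombe count in each of the 6 libraries, with lines joining same-numbered replicates. Right, the median log2(IAA/DMSO) of 6254 genes within each pair, with grey bars for S. pombe size factors and orange bars for TMM. The DMSO library of replicate 1 sits at 18.1, above all others, and its pair has a median of -1.40 under S. pombe scaling, while the 3 pairs lie between -0.06 and -0.03 under TMM.

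Because of this, every gene was tested under both scalings. In the first, libraries were scaled with S. pombe size factors, so that a fall of all genes would be kept. In the second they were scaled with the trimmed mean of M values (TMM) of the S. cerevisiae counts, which sets the typical gene near no change. A gene was called where edgeR's quasi-likelihood test, with same-numbered libraries as pairs, gave a Benjamini-Hochberg adjusted p under 0.05 and a log2 fold change over 1 in size. The median log2 fold change of the 6254 genes tested was -0.62 under S. pombe scaling (-1.40, -0.28 and -0.20 in pairs 1 to 3) and -0.04 under TMM, a shift of 0.58 per gene. Adjusted p-values and standard errors (SE) are all from these edgeR fits, and the counts given for single libraries are S. pombe-normalised unless named raw.

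With S. pombe scaling 112 genes were called higher (1.79%) and 507 lower (8.11%), and with TMM 505 were called higher (8.07%) and 481 lower (7.69%). All 112 of the first set, and 471 of the genes called lower (7.53%), were called in the same direction under both. A further 393 genes were called higher under TMM alone. The S. pombe-scaled calls rested on the pairs: without replicate 1 there were 344 higher and 741 lower, which held 616 of the 619 calls, without replicate 2 there were none (149 genes at an unadjusted p under 0.05), and without replicate 3 there were 7 and 2. TMM calls ranged from 501 to 532 higher and from 349 to 517 lower as each pair was left out, and no call changed sign. Values are therefore given under both scalings, and a gene is said to have risen or fallen where it was called under both unless TMM is named.

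**Figure D2:**
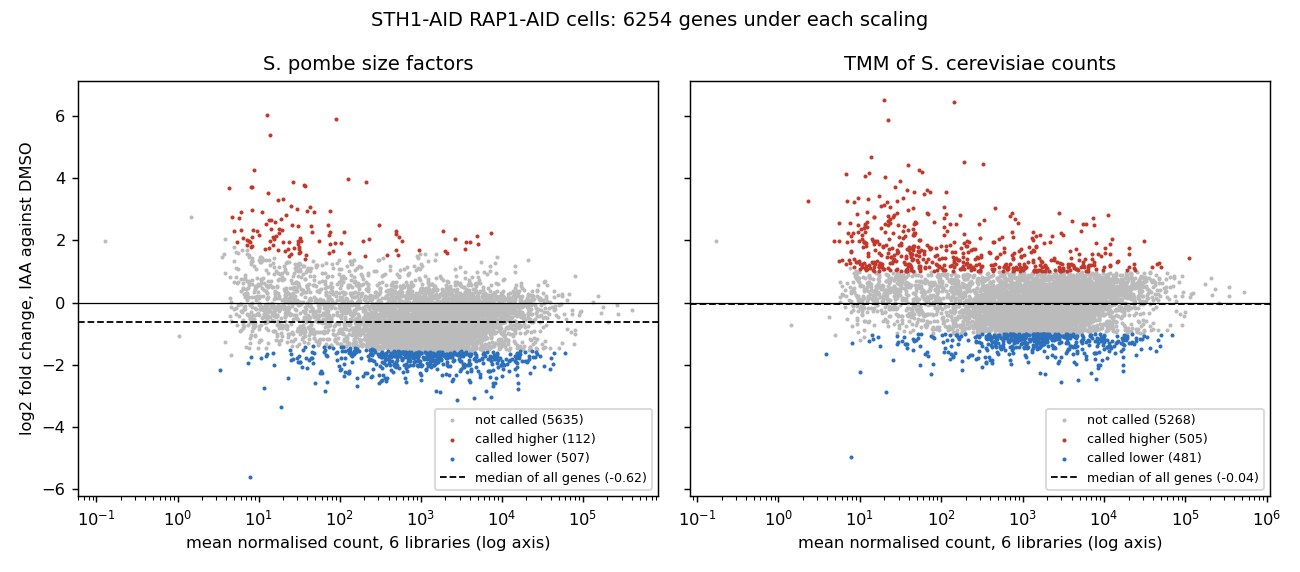
Log2 fold change of 6254 genes, IAA against DMSO, plotted against the mean normalised count of the 6 libraries (log axis), with S. pombe size factors on the left and TMM on the right. Red points were called higher, blue points lower and grey points neither. The dashed median lies at -0.62 on the left and at -0.04 on the right, and 112 genes on the left and 505 on the right were called higher.

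Cytoplasmic ribosomal protein genes fell as a group and none rose. Of the 137 tested, 87 were called lower under S. pombe scaling and 84 under TMM, against 8.11% and 7.69% of all genes. Their median log2 fold change was -1.71 under S. pombe scaling and -1.14 under TMM, where the median of all genes was -0.62 and -0.04. They took 13.5%, 13.3% and 13.04% of all S. cerevisiae counts in DMSO replicates 1 to 3, and 6.24%, 6.65% and 7.26% in IAA replicates 1 to 3, so that the groups were far apart on a measure with no spike-in. Under TMM all 3 IAA libraries lay below all 3 DMSO libraries for 129 of the 137 genes, against 36.2% of all genes tested. The small and large subunits had similar shares called: 37 of 56 small-subunit genes with a TMM median of -1.21, and 46 of 76 large-subunit genes with a median of -1.12. Reads that span an intron were not counted, so intron-containing members are represented only by reads that do not span one.

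RPS25B, which encodes a small-subunit protein, was the ribosomal protein gene that fell most. It had normalised counts of 7020, 4760 and 3138 in DMSO replicates 1 to 3 and of 394, 640 and 602 in the IAA replicates. All IAA libraries were far below all DMSO libraries. The log2 fold change was -3.13 (SE 0.59, adjusted p = 3.87e-05) under S. pombe scaling and -2.55 (SE 0.09, adjusted p = 3.72e-08) under TMM. RPS27A fell from 11858, 7392 and 4918 to 761, 1032 and 936, a log2 fold change of -3.06 (adjusted p = 5.03e-05) and under TMM of -2.48. Its 3 IAA values lay close together while the DMSO values differed, with DMSO replicate 1 the highest. RPS9B had 38906, 24962 and 18032 in DMSO and 2760, 4385 and 4462 in IAA, again without overlap (-2.77, adjusted p = 0.000293, and -2.19 under TMM). Among large-subunit genes RPL21B fell most, from 15954, 10283 and 7366 to 1052, 1777 and 1719 (-2.84, adjusted p = 0.000224, and -2.26 under TMM). The stalk proteins form the part of the large subunit that contacts elongation factors. Of their 5 genes only RPP0 fell, with a log2 fold change of -1.61 (adjusted p = 0.0377) and -1.03 under TMM.

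Most yeast ribosomal proteins are encoded by a pair of paralogous genes, and the paralogs did not always fall together. Of 59 pairs, both genes were called lower under TMM in 26, 1 gene in 22 and neither in 11. The TMM log2 fold changes of the paralogs differed by more than 1 in 15 pairs and by a median of 0.49, and the sign of the difference was the same in all 3 replicate pairs for 55 of the 59. The largest gap was in RPS9: against the fall of RPS9B, RPS9A had 8459, 5660 and 3666 in DMSO and 2970, 3738 and 2846 in IAA. These overlapped, and the log2 fold change was -0.82 (adjusted p = 0.297) and -0.24 under TMM. RPS27A and RPS27B differed likewise (-2.48 and -0.70 under TMM). RPS22B (0.86), RPL15B (0.93) and RPP2B (0.78) had positive TMM values below the fold threshold, beside -0.91 for RPS22A, -0.84 for RPL15A and -0.81 for RPP2A. Only uniquely mapped fragments were counted, so values of near-identical paralogs rest on the stretches that tell them apart.

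The promoters of several of these genes hold the core letters usually given for Rap1 binding, and they are shown with 2 of the other genes that fell in the same way and described next. The sequences are from RefSeq's R64 assembly, the build of the count table, and run 5′ to 3′ on the strand of the gene. Capitals mark each match to CCNTACA on either strand within 500 bases before the coding start, so that TGTATGG or TGTAAGG marks a match on the opposite strand.
RPS25B, chrXII:795995-796121, minus strand: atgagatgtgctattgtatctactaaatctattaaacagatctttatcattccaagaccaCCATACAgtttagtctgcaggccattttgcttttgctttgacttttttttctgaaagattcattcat
RPS9B, chrII:604229-604355, plus strand: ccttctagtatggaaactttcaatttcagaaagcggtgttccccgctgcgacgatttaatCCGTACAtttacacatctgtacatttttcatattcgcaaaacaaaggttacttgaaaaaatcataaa
RPL37A, chrXII:522247-522373, plus strand: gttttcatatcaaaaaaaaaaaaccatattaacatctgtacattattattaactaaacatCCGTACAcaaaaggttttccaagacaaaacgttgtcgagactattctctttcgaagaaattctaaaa
MIN10, chrVI:223981-224125, minus strand: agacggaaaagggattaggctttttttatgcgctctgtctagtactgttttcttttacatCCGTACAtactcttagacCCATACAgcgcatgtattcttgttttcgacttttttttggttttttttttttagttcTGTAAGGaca
ENO1, chrVII:1000575-1000701, plus strand: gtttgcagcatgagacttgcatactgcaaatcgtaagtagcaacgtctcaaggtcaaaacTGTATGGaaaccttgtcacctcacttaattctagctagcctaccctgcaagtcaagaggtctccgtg

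The match began 162 bases before the coding start in RPS25B, 219 bases before it in RPS9B and 292 bases before it in ENO1. A match occurred in 928 of the 5787 promoter windows read (16%), in 81 of the 137 windows of ribosomal protein genes (59.1%), in 110 of 447 windows of genes called lower under both scalings (24.6%) and in 7 of 76 windows of genes called higher (9.21%). Ribosomal protein genes with and without a match had similar TMM medians of -1.12 and -1.22. RPS27A, RPS26B and RPL21B, which fell as far as RPS25B or nearly so, had none. A match is a description of letters and not a bound site, and a window without one says nothing of the factor.

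Genes outside the ribosomal protein families fell to a like extent, among them several that also fell when Rap1 alone was depleted. CMS1, linked to ribosome synthesis, had 4113, 2610 and 1445 in DMSO and 305, 441 and 318 in IAA, with no overlap (-2.83, SE 0.59, adjusted p = 0.000309, and under TMM -2.25). GPD2, the glycerol-3-phosphate dehydrogenase used in redox balance, fell from 4228, 2735 and 2095 to 324, 430 and 437 (-2.87, adjusted p = 0.000223, and -2.29). In the strain with Rap1 alone tagged, the TMM log2 fold change was -3.13 for CMS1 and -1.46 for GPD2, and with Sth1 alone tagged it was -0.07 and -0.54. GPD1, the osmotically induced isoform of the same enzyme, had 1423, 1643 and 1737 in DMSO and 299, 768 and 1263 in IAA. Its groups did not overlap on this scale, but it was not called (-1.26, adjusted p = 0.114, and -0.67 under TMM). MIN10, with 3 matches within its window, had normalised counts of 153, 132 and 78.2 in DMSO and of 15.5, 21.3 and 23.3 in IAA (-2.55, adjusted p = 0.000206, and -1.97).

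Further falls of this kind were spread over other functions. MRPL49, a mitochondrial ribosomal protein gene, had 703, 429 and 401 in DMSO and 65.0, 128 and 113 in IAA (-2.32, adjusted p = 0.0022, and -1.74). CAF40, a subunit of the Ccr4-Not complex, had log2 fold changes of -2.02 and, under TMM, -1.43. NSR1 and NOB1, both needed for making ribosomal subunits, had -1.86 and -1.89 under S. pombe scaling and -1.28 and -1.31 under TMM. As lists, however, ribosome biogenesis genes had 9 of 128 called lower and none higher, with a TMM median of 0.01, and mitochondrial ribosomal protein genes had 6 of 72 called lower with a TMM median of -0.14. Both shares were near the 7.69% of all genes. RNA polymerase I and III subunit genes had 3 of 19 called lower.

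**Figure D3:**
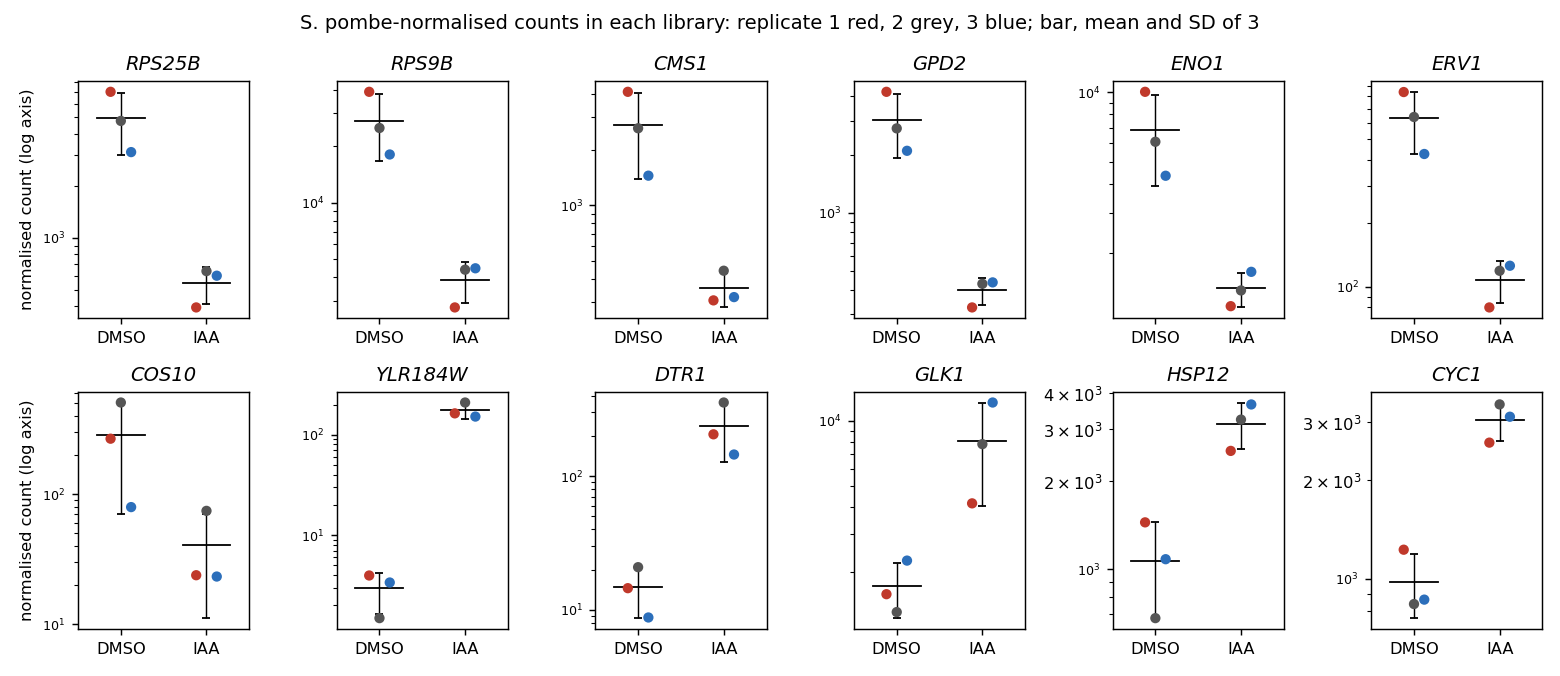
S. pombe-normalised counts (log axis) of 12 genes in the 3 DMSO and 3 IAA libraries, with replicate 1 in red, 2 in grey and 3 in blue, and the mean and SD of 3 as black bars. RPS25B, RPS9B, CMS1, GPD2, ENO1, ERV1 and COS10 were lower in every IAA library than in any DMSO library, and YLR184W, DTR1, GLK1, HSP12 and CYC1 were higher.

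Another set of genes fell here and, of the single-tag strains, with Sth1 depletion. ERV1, a sulfhydryl oxidase of the mitochondrial intermembrane space, had 839, 639 and 427 in DMSO and 79.9, 119 and 126 in IAA. Every IAA library was below every DMSO library (-2.52, SE 0.56, adjusted p = 0.000966, and -1.93 under TMM). MDM35, a small protein of the same compartment, fell from 797, 466 and 389 to 66.2, 117 and 97.6, with the same adjusted p of 0.000966 and log2 fold changes of -2.51 and -1.93. The TMM log2 fold changes of ERV1 were -2.95 with Sth1 tagged alone and -0.18 with Rap1 tagged alone, and those of MDM35 were -2.45 and 0.09. DUT1, the dUTPase, had 2924, 1622 and 1251 in DMSO and 338, 459 and 412 in IAA (-2.17, adjusted p = 0.00702, and -1.59). ROK1, an RNA helicase of ribosome assembly, had log2 fold changes of -2.08 and -1.50, and ATP20, a subunit of the ATP synthase, of -1.98 and -1.40. ISW1, the ATPase of another remodeller, fell by 1.60 (adjusted p = 0.0448) and under TMM by 1.03 on the log2 scale.

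COS genes encode a family of membrane proteins, many of them near telomeres, that share long stretches of sequence. Of the 12 tested, 4 fell under both scalings, against 7.53% of all genes, and none rose, with a TMM median of -0.66. COS10 had normalised counts of 267, 505 and 79.6 in DMSO and 23.9, 74.4 and 23.3 in IAA. The highest IAA value was just below the lowest DMSO value (-2.68, adjusted p = 0.000206, and -2.18). Its neighbour PAU6, of the seripauperin family, had raw counts of 26, 73 and 24 in DMSO and 4, 5 and 5 in IAA (-3.34, SE 0.59, adjusted p = 9.8e-06, and -2.87). DFP4 had raw counts of 88, 221 and 103 in DMSO and 23, 33 and 16 in IAA (-2.85, adjusted p = 2.2e-05, and -2.29). DMSO replicate 2 was the highest DMSO library for COS10, PAU6 and DFP4 alike. Over all genes within 15 kb of a chromosome end, 9 of 140 were called higher and 15 lower under S. pombe scaling (1.79% and 8.11% of all genes), and 19 and 12 under TMM (8.07% and 7.69%). The share called lower was thus near that of all genes, and the share called higher was above it under both scalings. Genes of low level had raised shares too. Of the 1251 genes lowest in wild-type cells, 7.67% were called higher under S. pombe scaling and 26.9% under TMM. What part level had in the share near chromosome ends was not tested.

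Glycolytic genes moved in opposite directions within 1 pathway. Of 17 tested, 2 rose and 3 fell under S. pombe scaling (1.79% and 8.11% of all genes), and 4 rose and 3 fell under TMM (8.07% and 7.69%). ENO1, an enolase, had 10030, 6093 and 4341 in DMSO and 1182, 1382 and 1664 in IAA, with no overlap (-2.20, SE 0.57, adjusted p = 0.00558, and -1.62). PFK1, a phosphofructokinase subunit, had log2 fold changes of -2.06 (adjusted p = 0.00881) and -1.48. GLK1, the glucokinase, had 1589, 1314 and 2269 in DMSO and 4163, 7800 and 12128 in IAA (2.13, SE 0.56, adjusted p = 0.00695, and 2.71). TDH1, a glyceraldehyde-3-phosphate dehydrogenase, had log2 fold changes of 1.68 (adjusted p = 0.0377) and 2.26. All IAA libraries were above all DMSO libraries for both genes. The list as a whole took 6.43% to 6.51% of the counts in DMSO and 7.13% to 7.48% in IAA. Such a share also depends on the counts of all other genes. The S. pombe-normalised sums of the list were 2332120, 1364540 and 1095300 in DMSO and 1104650, 1325670 and 1195370 in IAA, and these overlapped.

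Several genes of gluconeogenesis, respiration and sugar uptake rose. FBP1, the gluconeogenic fructose-1,6-bisphosphatase, had raw counts of 7, 14 and 11 in DMSO and 103, 130 and 83 in IAA (2.94, adjusted p = 2.47e-05, and 3.48). Gluconeogenesis and glyoxylate genes had 2 of 13 called higher under S. pombe scaling (1.79% of all genes) and 7 under TMM (8.07%), with a TMM median of 1.00. Citric acid cycle genes had none of 12 called under S. pombe scaling (3 at an unadjusted p under 0.05, and 4 higher by DESeq2) and 5 called higher under TMM. For respiratory chain and ATP synthase genes these counts were 2 and 8 of 37, with 1 gene, ATP20, called lower under both. CYC1, which encodes the main cytochrome c, had 1227, 839 and 865 in DMSO and 2599, 3397 and 3116 in IAA (1.65, SE 0.56, adjusted p = 0.0389, and 2.23). CYC7, its less abundant isoform, had log2 fold changes of 1.60 (adjusted p = 0.0327) and 2.20. Of 17 hexose transporter and glucose sensor genes tested, 3 were called higher under S. pombe scaling and 7 under TMM. HXT14, a hexose transporter family member, had normalised counts of 3.96, 8.19 and 3.37 in DMSO and 54.3, 104 and 50.4 in IAA (3.74, adjusted p = 1.81e-07, and 4.20).

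Stress genes followed the same split between scalings, where 1.79% of all genes were called higher under S. pombe scaling and 8.07% under TMM. Of 24 general stress genes, 2 and 12 were called higher, with none lower and medians of 0.30 and 0.88. HSP12, a small membrane-protecting heat shock protein, had 1444, 680 and 1081 in DMSO and 2531, 3237 and 3646 in IAA, with no overlap (1.61, SE 0.56, adjusted p = 0.046, and 2.18). PNC1, a nicotinamidase, had log2 fold changes of 1.94 (adjusted p = 0.015) and 2.51. CTT1, the cytosolic catalase, had 684, 506 and 533 in DMSO and 704, 1579 and 2090 in IAA. It was called under TMM only (1.82, adjusted p = 3.36e-07; 1.23 and adjusted p = 0.125 under S. pombe scaling). Of 20 trehalose and glycogen genes 6 were called higher under TMM and 1 under S. pombe scaling, TSL1 of the trehalose synthase complex, with 963, 609 and 1322 in DMSO and 2471, 3038 and 7340 in IAA (2.05, adjusted p = 0.00999, and 2.63). Heat shock chaperone genes had none of 25 called under S. pombe scaling (2 at an unadjusted p under 0.05, and 2 lower by DESeq2) and 4 called higher under TMM. Of 21 cell wall mannoprotein genes, 2 were called higher and 1 lower under S. pombe scaling, and 3 and 1 under TMM, with medians of -0.05 and 0.53. Those that rose included YGP1, a secreted glycoprotein, at 2.30 and 2.88, and CWP1, a wall mannoprotein, at 2.24 and 2.82.

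Sporulation genes, which are kept low in growing haploid cells, included some of the largest rises. Of the 40 tested, 6 were called higher and 1 lower under S. pombe scaling, and 18 higher and none lower under TMM, with medians of 0.31 and 0.88. Over all genes 1.79% were called higher and 8.11% lower under S. pombe scaling, and 8.07% and 7.69% under TMM. DTR1, a transporter active during spore wall formation, had raw counts of 11, 28 and 13 in DMSO and 344, 467 and 230 in IAA. All IAA libraries were more than an order of magnitude above their own DMSO library (3.98, SE 0.58, adjusted p = 1.24e-08, and 4.53). SPR28, a septin of sporulation, had normalised counts of 21.1, 8.19 and 6.07 in DMSO and 68.0, 134 and 53.5 in IAA (2.92, adjusted p = 3.42e-05, and 3.55). MEK1, a meiosis-specific kinase, had log2 fold changes of 3.10 and 3.64, and SPS4 of 2.20 and 2.79. The list took 0.0178% to 0.0311% of the counts in DMSO and 0.0281% to 0.0459% in IAA, so these remained minor transcripts and the ranges overlapped.

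Genes near the detection limit gave the largest fold changes. YLR184W, a reading frame with no entry in RefSeq at chrXII:522106-522453 on the plus strand, had raw counts of 3, 2 and 5 in DMSO and 274, 276 and 241 in IAA. All IAA libraries were far above all DMSO libraries (5.90, SE 0.67, adjusted p = 1.6e-14, and 6.44 under TMM). It ends 209 bases before the coding start of RPL37A on the same strand, and the match shown above in the window of RPL37A, at chrXII:522307-522313, lies inside it. RPL37A itself had 22488, 12399 and 9748 in DMSO and 3204, 4360 and 4603 in IAA, a fall of 1.79 (adjusted p = 0.0258) and of 1.21 under TMM on the log2 scale. YGR273C, of unknown function, had raw counts of 0, 0 and 1 in DMSO and 41, 45 and 25 in IAA, at least 9.06-fold higher against a floor of 3 counts per DMSO library. YDR544C, another reading frame outside RefSeq, had raw counts of 0, 1 and 1 in DMSO and 47, 41 and 36 in IAA, at least 9.97-fold higher.

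The 456 tested reading frames that RefSeq does not list had 106 called higher under TMM (23.2%) and 24 lower, and 36 and 30 under S. pombe scaling. The 5798 that it lists had 399 and 457 under TMM, and 76 and 477 under S. pombe scaling. When genes were ranked by their level in wild-type cells, the 1251 lowest had 336 called higher and 49 lower under TMM, and the 1251 highest had 46 and 151. Reading frames of this kind often overlap other genes or lie beside them. DTR1 lies 252 bases from the end of RPS6B, which is on the opposite strand and had a TMM log2 fold change of -2.02. YKL156C-A lies within RPS27A on the opposite strand and had raw counts of 20, 15 and 13 in DMSO and 0, 0 and 1 in IAA, at least 7.77-fold lower against a floor of 3 counts per IAA library. Counting used strand, and what part neighbouring transcripts had in these values was not tested.

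There were 65 tested genes whose nearest upstream neighbour in RefSeq was a ribosomal protein gene on the opposite strand, head-to-head with it. No limit was set on the distance, and NUP2, for example, lies 1530 bases from RPS25B. Of the 65, 2 were called higher and 3 lower under S. pombe scaling, against 1.79% and 8.11% of all genes. Under TMM 8 and 3 were called, against 8.07% and 7.69%. The TMM median was 0.25. Those higher under both scalings were FYV12 and YPL080C, and those lower were LCB3, YPL199C and RKI1. FYV12, a frame of uncertain function, had raw counts of 27, 22 and 24 in DMSO and 122, 167 and 104 in IAA (1.99, adjusted p = 0.00549, and 2.60). YPL080C, whose start is 137 bases from that of RPL21B, had raw counts of 1, 1 and 3 in DMSO and 15, 15 and 19 in IAA, at least 3.93-fold higher against the same floor per DMSO library.

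Several gene groups close to the depleted proteins had no member called by edgeR. Counts at an unadjusted p under 0.05 are given first for S. pombe scaling and then for TMM, where 1877 and 4937 of all 6254 genes passed it. RSC subunit genes had none of 17 called, with a TMM median of 0.08. Unadjusted p was under 0.05 for 2 of them with S. pombe scaling and for 13 with TMM, and DESeq2 with S. pombe size factors called 3 lower. General regulatory factor genes had none of 6 called (0 and 5 at the unadjusted p, 0 by DESeq2), with a TMM median of 0.44. For RNA polymerase II subunit genes none of 12 was called (0 and 10, and 1 lower by DESeq2), and for proteasome genes none of 33 (2 and 32, and 2 lower by DESeq2). Histone genes had none of 10 called (0 and 10, and 0 by DESeq2), with a TMM median of 0.60. They took 0.512% to 0.522% of the counts in DMSO and 0.712% to 0.762% in IAA, which did not overlap. None of 8 regulators of ribosomal protein genes, among them FHL1, IFH1, SFP1 and HMO1, was called (2 and 5, and 2 lower by DESeq2). Of the mating-type markers, 5 of 7 a-specific and all 4 alpha-specific genes were called higher under TMM, against 8.07% of all genes. None of either was called under S. pombe scaling (1 and 1 at an unadjusted p under 0.05, and 1 a-specific gene by DESeq2), where 1.79% of all genes were called higher. MFA2, a precursor of a-factor, had TMM and S. pombe-scaled log2 fold changes of 1.55 and 0.96, and SAG1, the alpha-agglutinin, of 1.15 and 0.57.

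The strains with 1 tagged protein, each with its own 3 IAA and 3 DMSO libraries, show how the joint depletion compares with its parts. Under TMM, 862 genes were called higher and 1117 lower with Sth1 depleted alone (13.8% and 17.9%), and 66 and 207 with Rap1 depleted alone (1.06% and 3.31%). With S. pombe scaling the counts were 306 and 2585 with Sth1 depleted alone, and 28 and 259 with Rap1 depleted alone. Of the 471 genes that fell in STH1-AID RAP1-AID cells, 304 were called lower with Sth1 depletion alone, 111 with Rap1 depletion alone, 3 in both, 4 lower with Rap1 and higher with Sth1, and 49 with neither. Of the 112 that rose, 81 were called higher with Sth1 depletion alone, 8 with Rap1 depletion alone, 15 in both, 1 higher with Sth1 and lower with Rap1, and 7 with neither. The single-strain calls are those under TMM, from 1 fit of the 18 libraries of the 3 tagged strains. The 471 and 112 genes are from the fit of 6 libraries and had to pass under both scalings, so these overlaps compare unlike rules. Where single-strain calls under either scaling were counted, 19 of the genes that fell and 7 of those that rose were called in neither single strain. In promoter windows the letters CCNTACA occurred in 44 of 295 genes of the first lower set (14.9%) and in 57 of 108 of the second (52.8%), or 11 of 27 (40.7%) with ribosomal protein genes left out.

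**Figure D4:**
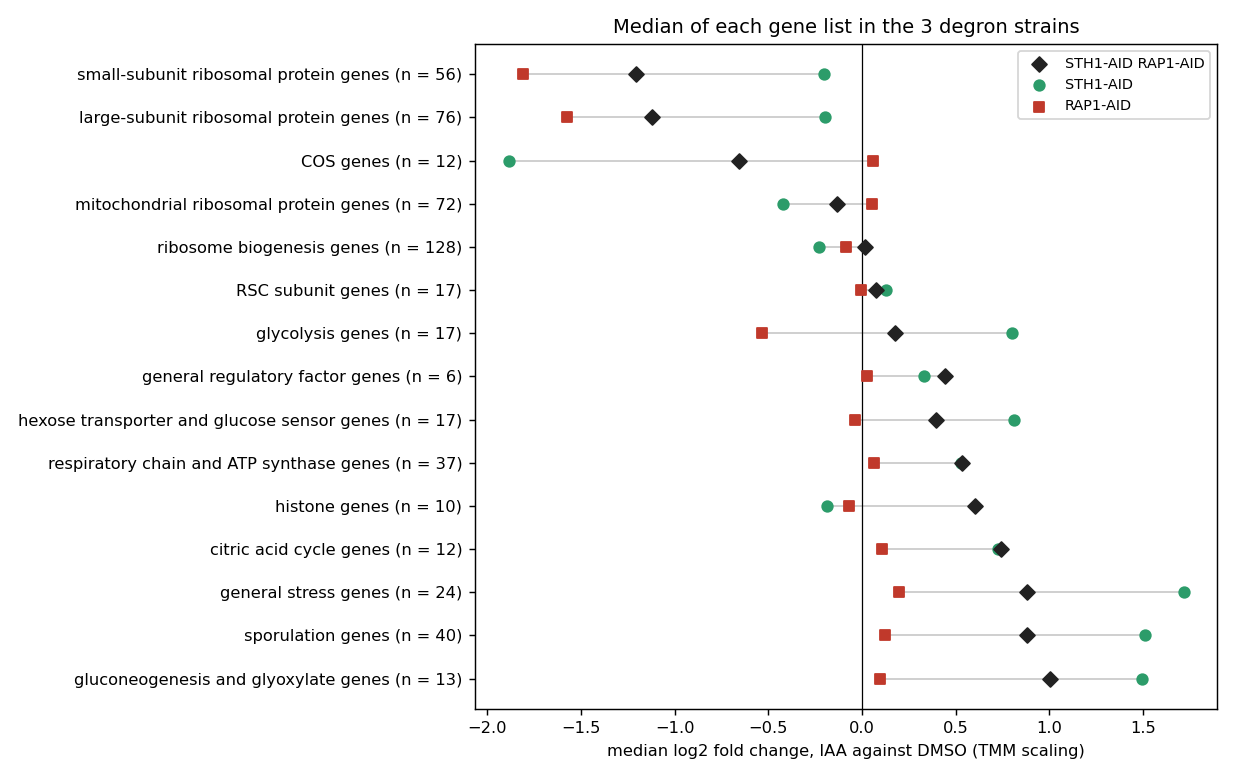
Median log2 fold change of 15 gene lists, IAA against DMSO under TMM, in STH1-AID RAP1-AID cells (diamonds), STH1-AID cells (circles) and RAP1-AID cells (squares), with n the genes tested. Small-subunit ribosomal protein genes had medians of -1.21, -0.20 and -1.81 in this order, and general stress genes 0.88, 1.72 and 0.20.

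The difference between strains was tested itself, as an interaction in 1 fit of the 18 libraries of the 3 tagged strains. Against Sth1 depletion alone, 229 genes had a more positive effect in the joint depletion (3.66%) and 389 a more negative one (6.22%) under TMM, and 72 (1.15%) and 69 (1.1%) under S. pombe scaling. Against Rap1 depletion alone the counts were 425 (6.8%) and 384 (6.14%) under TMM, and 86 (1.38%) and 382 (6.11%) under S. pombe scaling. Ribosomal protein genes had a median TMM log2 fold change of -0.19 with Sth1 depleted alone and -1.64 with Rap1 depleted alone, beside -1.14 in the joint depletion. With S. pombe scaling these medians were -0.96, -1.90 and -1.71, where those of all genes were -0.81, -0.25 and -0.62. With Sth1 depleted alone, 56 of the 137 were called lower under S. pombe scaling and 2 under TMM. Of all 6254 genes, 2585 and 1117 were. Relative to Sth1 depletion, 62 of the 137 were more negative under TMM and 7 under S. pombe scaling. Relative to Rap1 depletion, 10 were more positive and none more negative under TMM, and none differed under S. pombe scaling.

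ENO1 went in opposite directions in the single strains, with TMM log2 fold changes of 1.92 with Sth1 depleted and -3.17 with Rap1 depleted, beside -1.62 in the joint depletion. The difference from Sth1 depletion passed under both scalings (adjusted p = 3.8e-10 under TMM and 4.8e-09 under S. pombe scaling), while that from Rap1 depletion passed under TMM only (1.9e-06 and 0.077). HSP12 had 5.66 with Sth1 depleted and -0.28 with Rap1 depleted, beside 2.18, and differed from both strains under both scalings. DUT1 and ROK1 also lay between the strains, with -3.31 and -3.15 for Sth1 depletion against -1.59 and -1.50 in the joint depletion. By the TMM test, 11 of 24 general stress genes had a more negative effect than under Sth1 depletion, and 8 a more positive and 1 a more negative effect than under Rap1 depletion. Under S. pombe scaling these counts were 4, 3 and 1. COS genes had a median of -1.89 with Sth1 depleted and -0.66 in the joint depletion, and the effect was more positive than under Sth1 depletion for 5 of 12 under TMM and for 2 under S. pombe scaling.

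A few genes went beyond both single strains. By the difference tests under TMM, 10 genes rose more and 6 fell more in the joint depletion than in either strain, and 3 and 1 did so under both scalings: DTR1, YJR115W and YBL071C-B rose more, and ATG19 fell more. The TMM log2 fold changes of DTR1 were 1.81 with Sth1 depleted and 1.07 with Rap1 depleted, beside 4.53 in the joint depletion. The larger rise had an adjusted p of 2e-05 against Sth1 depletion and of 4.6e-07 against Rap1 depletion. ATG19, the receptor of the cytoplasm-to-vacuole pathway, had 1148, 1328 and 723 in DMSO and 224, 405 and 381 in IAA (-1.66, adjusted p = 0.037, and -1.08). With 1 protein depleted its TMM values were 0.79 for Sth1 and 0.31 for Rap1. CYC1 had 0.58 and 0.77 beside 2.23, and the difference passed under both scalings against Sth1 depletion and under TMM only against Rap1 depletion. YLR184W had 2.18 with Sth1 depleted and 6.94 with Rap1 depleted beside 6.44, and it did not differ from Rap1 depletion under either scaling.

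**Figure D5:**
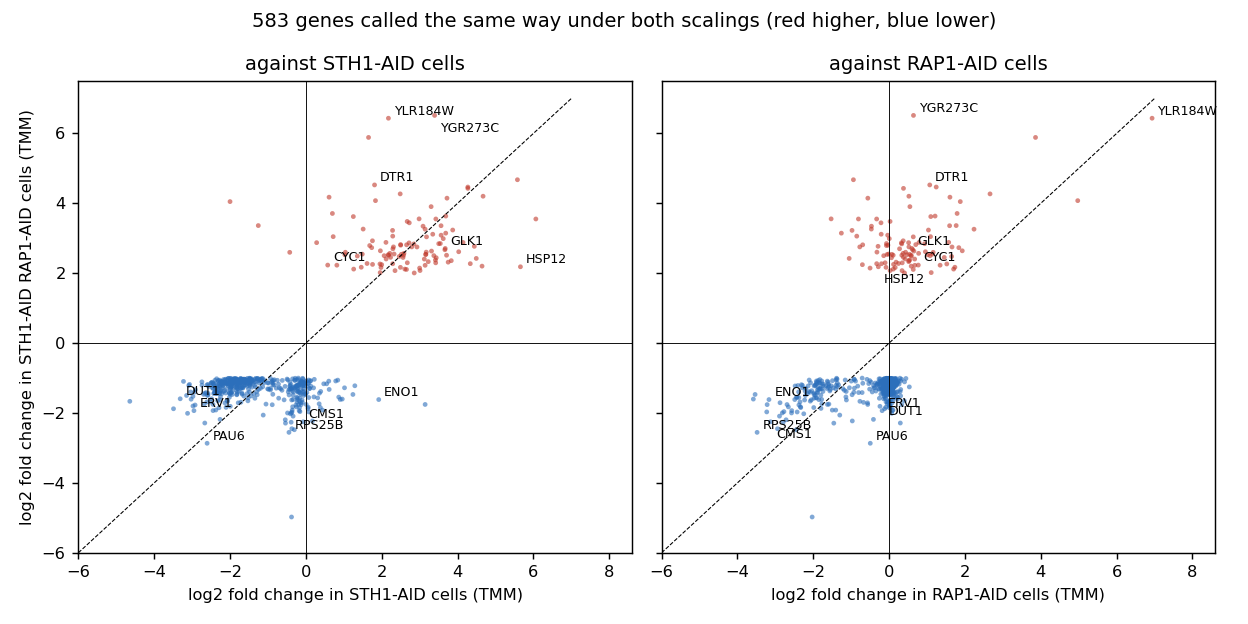
TMM log2 fold change of 583 genes called the same way under both scalings in STH1-AID RAP1-AID cells (vertical axis), plotted against the value in STH1-AID cells (left) and RAP1-AID cells (right), with red for genes called higher, blue for lower and a dashed line of equality. ERV1 and DUT1 lie near 0 against RAP1-AID cells and at -2.95 and -3.31 against STH1-AID cells, and RPS25B and CMS1 lie at -3.48 and -3.13 against RAP1-AID cells.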

How the data were processed

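The authors deposited raw counts of fragments per protein-coding gene for each species, made, per the study's methods and processing notes, with cutadapt 1.9.1, BWA 0.5.9-r16 (R64 and ASM294v2, mapped separately) and featureCounts of Subread 1.5.1, from strand-specific, uniquely mapped, unspliced pairs. Fragments in overlapping genes were counted for each gene. No other deposited unit was used, and the tables' length columns were not tested.

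S. pombe size factors were medians of ratios over 4876 S. pombe genes in all 21 libraries, and normalised counts are counts divided by them. The 6254 genes kept by filterByExpr were tested in edgeR 4.0.16 (R 4.3.3) with the replicate number as a block. Same-numbered DMSO and IAA libraries deviated together from their group means (Pearson's r = 0.45, 0.67 and 0.62 across genes, which are not independent). For other numbers r was -0.52 to -0.08, but deviations cancel within a group, so negative values there partly follow from the positive ones. The libraries were treated as pairs on this ground, since the labels do not say what a number shares. A shift of a whole library leaves r unchanged, so the check cannot tell whether spike-in levels were paired. Replicate libraries differed by more than sampling noise. P-values measure the spread between these libraries. A gene counted as at the floor when no library of a group passed 3 counts. Single-strain effects and strain differences came from a fit of 18 libraries with the block within strain, the differences as interaction terms. In simulated counts with large fold changes and a fixed dispersion, 200 of 200 changed genes were recovered with 0 false calls. The fit with given size factors received those that made the counts. Error in the spike-in and smaller changes were therefore not tested, and the result gives no error rate for the calls above.

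Genes named by rule were the 10 called higher and 10 called lower with the largest fold changes under each scaling and called the same way under both, up to 4 called members of each gene list, and marker genes. GPD1, MIN10, ERV1, MDM35, NSR1, NOB1, SPS4, ATG19, VTS1, RPL37A, RPS6B and the genes named for their paralogs, for a head-to-head position or for going beyond both single strains were added after their values were seen. Members and lists were chosen with earlier results of these data known. Wild-type libraries entered only the size factors, the level ranking and 1 alternative. Alternatives varied the scaling, block, samples, test (DESeq2 1.42.0), filter and replicates. Figures were drawn with matplotlib 3.10.9.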

Additional observations from a re-analysis of the deposited data

Results flagged for a closer look

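The following genes had an effect of IAA in STH1-AID RAP1-AID cells that differed, by the test of the difference itself under both scalings, from the effect in a strain with 1 tagged protein. Each value is the TMM log2 fold change in the joint depletion minus that in the single strain.

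Relative to Sth1 depletion alone, ribosomal protein genes were lower, by -2.10 for RPS25B, -2.17 for RPS27A, -2.08 for RPS26B and -1.87 for RPL21B. CMS1 (-2.18), GPD2 (-1.75), ENO1 (-3.53), HSP12 (-3.48), ATG19 (-1.88) and YKL156C-A (-4.58) were also more negative. The value of YKL156C-A rests on 0, 0 and 1 raw counts in the IAA libraries. DTR1 (2.71), CYC1 (1.66), FYV12 (3.03), YNL028W (3.56) and DUT1 (1.72) were more positive, of which DUT1 fell in both strains and fell less in the joint depletion.

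Relative to Rap1 depletion alone, ERV1 (-1.75), PAU6 (-2.38), DFP4 (-2.59), DUT1 (-1.45), ATG19 (-1.39) and VTS1 (-1.02) were more negative. DTR1 (3.45), ECM8 (3.22), HXT14 (3.67) and HSP12 (2.46) were more positive.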

How the results depend on the processing

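The 112 genes called higher became 505 with TMM, 576 with DESeq2 size factors, 459 with TMM and no replicate block, 218 with no block and 21 libraries together, 221 with 18 libraries and the block, 176 with the DESeq2 test and 54 where 50 counts were asked for. The 507 called lower became 1956 without the replicate block, 2039 with no block and 21 libraries together, 1878 with 18 libraries and the block and 1850 with DESeq2. Leaving out pairs gave 0 to 344 higher and 0 to 741 lower, and under TMM 501, 532 and 518 higher and 349 to 517 lower. Of the 619 S. pombe-scaled calls 616 remained without replicate 1, 0 without replicate 2 and 9 without replicate 3. Of the 986 TMM calls 811, 894 and 937 remained. With no block, where all 6 libraries gave 1956 lower, leaving out IAA replicate 1 gave 362 lower, IAA replicate 2 1531, IAA replicate 3 381, DMSO replicate 1 1021, DMSO replicate 2 1174 and DMSO replicate 3 2695, and the genes called higher ranged from 87 to 202. Differences from Sth1 depletion went from 72 and 69 to 229 and 389 under TMM, and from Rap1 depletion from 86 positive to 425 under TMM and from 382 negative to 612 with no block and 21 libraries together. The fold change of RAP1 (-0.34) became 0.25 under TMM with or without the block, 0.32 with DESeq2 size factors, -0.57 (without replicate 3) to 0.0091 (without replicate 1) with pairs left out and 0.24 to 0.32 with pairs left out under TMM, and STH1 (0.17) ranged from -0.059 without replicate 3 to 0.52 without replicate 1. None of these values of RAP1 and STH1 was called. Beyond fewer libraries or genes, the cause of these changes was not tested. Of 77 genes named, 70 kept their call under TMM, 6 gained one and 1 changed sign. With S. pombe scaling, 66 of the 77 lost their call without replicate 2. Without replicate 3, 58 lost it and 1 changed sign, and without replicate 1, 4 gained one and 1 changed sign. Genes with few counts in DMSO had fold changes limited by depth.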
